A study of Rattus norvegicus with 6 samples.

Results

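The genes described here are 51 nucleolar factors of ribosome biogenesis, chosen as a list of gene symbols. They cover box C/D and box H/ACA small nucleolar ribonucleoproteins (snoRNPs), nucleolar chaperones, processing factors of the small and the large subunit, and RNA polymerase I. Of the 17327 genes in the deposited counts, 48 were of this list, and 45 of these were among the 9740 genes that passed the filter on low counts. The study asked how primary rat Schwann cells, the glia of peripheral nerve, responded to soluble Neuregulin1 (NRG1), a growth factor that signals through ErbB receptors. Poly(A) RNA was sequenced from 3 mock and 3 NRG1 samples, each number (1, 2 or 3) being an independent preparation from the sciatic nerves of adult female Wistar rats that gave 1 sample of each group. Both groups held confluent cells that had been expanded with NRG1 in the medium and were then starved for 18 h in 2% serum. Forskolin (10 µM), which raises cAMP, was in the medium of both groups throughout. NRG1 samples received 10 nM recombinant soluble NRG1β1 for 6 h, and mock samples received the same volume of its PBS and albumin buffer.

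Ribosomes are assembled in the nucleolus, where RNA polymerase I transcribes the precursor of the large ribosomal RNAs. SnoRNPs modify and help to cut this precursor, box C/D particles guiding ribose methylation and box H/ACA particles guiding pseudouridylation, while processing factors of each subunit fold, cleave and release the pre-ribosomes. Most of these genes are expressed in every cell, and they are commonly induced by growth factors and by Myc, which binds the sequence CACGTG.

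The counts assigned to genes ranged from 6821590 to 15475018 per sample, so that 3 counts corresponded to 0.194 to 0.444 CPM (counts scaled to a common library size). The Schwann cell marker Sox10 was detected in each sample, at 396 to 1175 CPM in mock and 477 to 1258 CPM in NRG1. S100b, another Schwann cell marker, was at 1007 to 1860.3 CPM in mock and 588 to 1148 CPM in NRG1. Culture 1 stood apart from cultures 2 and 3 in both groups. It held the lowest Sox10 and S100b levels of each group and, among fibroblast markers, Pdgfra at 870 and 827 CPM (mock and NRG1) and Thy1 at 1268 and 1143 CPM. In cultures 2 and 3 Pdgfra was at most 1.61 CPM and Thy1, Dcn and Lum were listed at 0, although Col1a1 was at 13413 CPM or more in every sample and Col1a2 near 0 in every sample. Defining markers of macrophages (Ptprc, Itgam, Aif1) and endothelial cells (Pecam1, Cdh5) were under 0.5 CPM in all samples, with list sums of 3.23 to 10.3 CPM (mock) and 3.71 to 8.27 CPM (NRG1) for 6 macrophage markers and of 10.0 to 15.2 and 6.53 to 8.88 CPM for 5 endothelial markers. Of the 5 neuronal markers Nefl alone was high, and Rbfox3, Syt1 and Stmn2 were under 0.5 CPM. The part of these cells in the results was not tested. Each fold change below was taken within preparations, and counts of members are also given without culture 1. In bulk samples a change in the make-up of the cells and a change in the RNA per cell cannot be told apart.

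NRG1 treatment raised most of the nucleolar factors within 6 h. Together the members took 0.260, 0.283 and 0.310% of all gene counts in mock cultures and 0.402, 0.550 and 0.470% in NRG1 cultures, so every NRG1 sample stood above every mock sample. The ratio within preparations was 1.55, 1.94 and 1.52. Of the 45 members tested, 32 rose, 0 fell and 13 did not pass the test (edgeR quasi-likelihood test, replicate as a block, Benjamini-Hochberg adjusted p of at most 0.01 over all genes tested). Over all genes tested, 6.31% rose and 5.51% fell by the same rule. At an unadjusted p under 0.05 the members counted 38 higher and 0 lower, and 17.0% of all genes tested were higher. DESeq2 with the same block gave 27 and 0, and called 5.77% of all genes up. The median log2 fold change (NRG1 against mock) was 0.64 for the members and -0.03 for all genes tested. Without culture 1, 25 members rose, of which 24 were among the 32, and the median was 0.66. Without culture 2 the count was 20. Of all genes, 5.94% rose without culture 1 and 5.07% without culture 2. The edgeR calls rest on the comparison within preparations: without the block edgeR gave 0 calls among members and among all genes. There 35 members and 7.32% of all genes were higher at an unadjusted p under 0.05. DESeq2 without the block called 13 members up, and 1.20% of all genes.

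The rise exceeded 2-fold in 8 members, namely Fbl, Nop56, Rrp9, Mybbp1a, Nolc1, Emg1, Bop1 and Nop2, against 1.56% of all genes tested that rose and 1.91% that fell this far, and without culture 3 in 14. With the 2-fold threshold placed inside the test, 0 members passed (lowest adjusted p = 0.0307). At an unadjusted p under 0.05 this test gave 7 members, against 0.996% of all genes tested that were higher. In CPM, all NRG1 samples were above all mock samples for 36 members, an arrangement found for 10.2% of all genes tested, and they were all below for 0 members (9.94%). Within preparations 43 members were higher after NRG1 in all 3 pairs (25.9% of all genes tested), Wdr75 was higher in 2 and Ubtf was lower in all 3. All tested members were well counted, the lowest count being 54 in a mock sample, so none passed the filter only through the NRG1 group. CPM carries no correction for gene length, so levels are not compared between genes. Members that rose had log2 fold changes of 0.48 to 1.56 with standard errors (SE) of 0.12 to 0.16. At the threshold, Dkc1 and Utp14a were just inside (adjusted p = 0.00884 and 0.00966) and Utp20 and Gnl3 just outside (0.0151 and 0.0156). Of the 13 that did not pass, 6 had a 95% interval of the fold change wholly above 0 and 7 an interval that included 0.

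**Figure D1:**
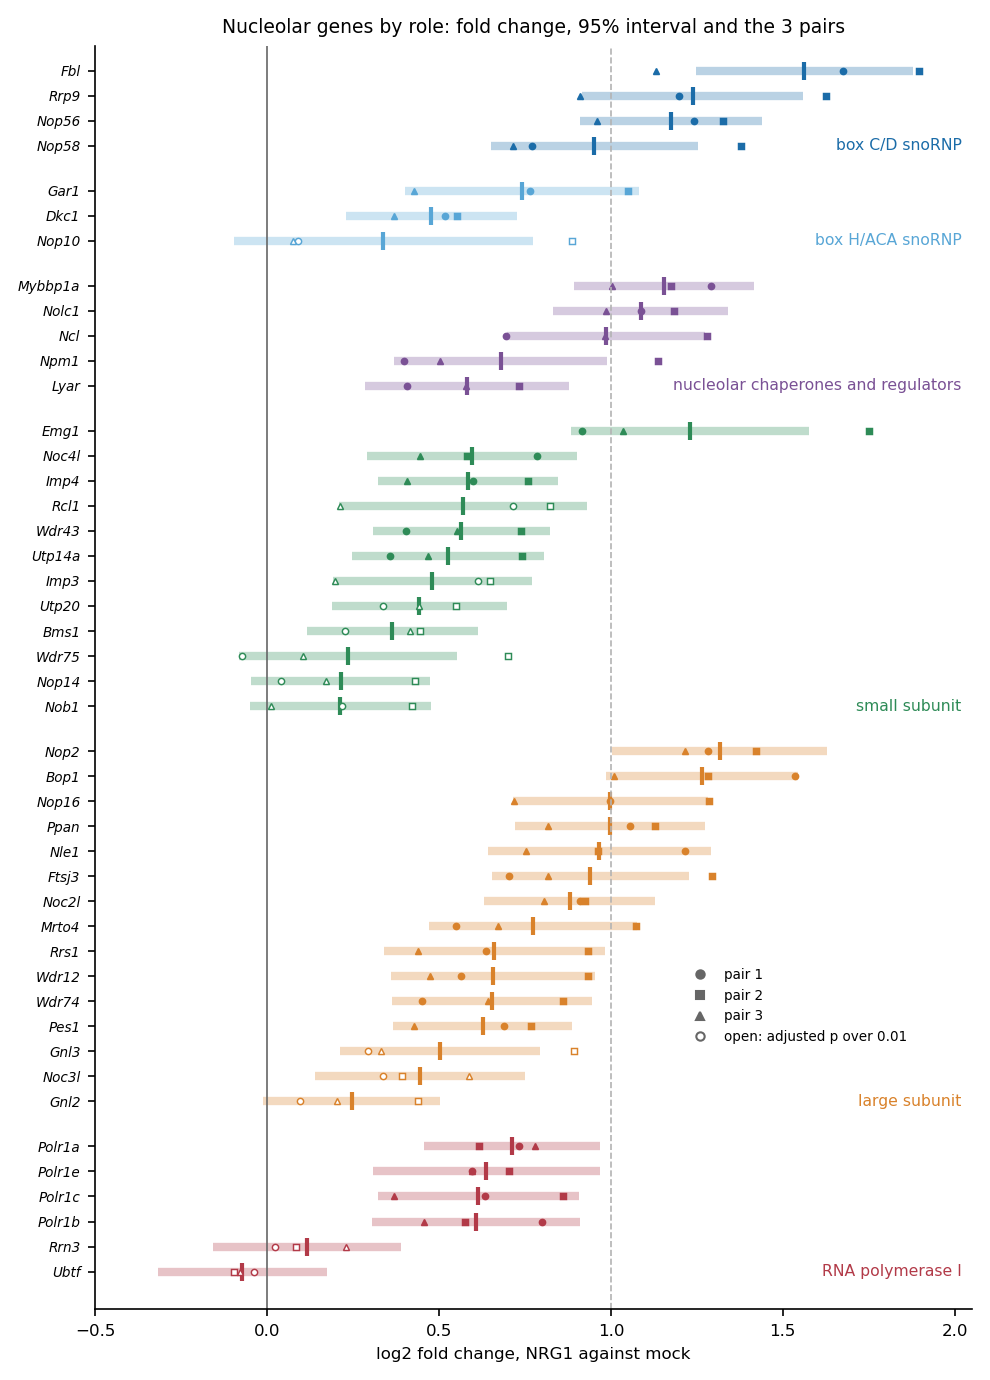
Log2 fold change of NRG1 against mock (horizontal axis) for the 45 members tested, grouped by role, with a tick at the fitted value, a pale bar for its 95% interval and a marker for the log2 ratio of each of the 3 preparations (circle 1, square 2, triangle 3, open where the adjusted p is over 0.01). The fitted values run from -0.07 for Ubtf to 1.56 for Fbl, and the dashed line marks a 2-fold rise.

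As the members moved together, their promoters were searched for the letters CACGTG, the site read by Myc and other E-box factors. RefSeq promoter windows of the rat assembly GRCr8, running from 250 bases before to 50 bases after the annotated start, were matched by symbol for 47 of the 51 members, all but Rrs1, Bop1, Wdr43 and Gnl2. The motif was searched in these 300 bases on both strands, which for a palindrome are the same sites. It was present in 15 of the 47 (31.9%) and in 12 of the 41 tested members with a window (29.3%). It was in 9.88% of the 7479 tested genes with a window and in 6.42% of all 33469 windows. The stretches below are from members that rose over 2-fold (Mybbp1a, Fbl, Nop2), members that rose less (Nle1, Pes1) and a member that did not pass the test (Gnl3). They are written 5′ to 3′ on the gene's strand with each CACGTG in capitals.
Mybbp1a, chr10:57555293-57555467, plus strand: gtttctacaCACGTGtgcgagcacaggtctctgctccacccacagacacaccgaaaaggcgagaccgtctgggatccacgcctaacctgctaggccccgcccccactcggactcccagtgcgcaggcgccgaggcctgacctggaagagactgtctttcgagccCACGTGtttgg
Nle1, chr10:68340171-68340260, minus strand: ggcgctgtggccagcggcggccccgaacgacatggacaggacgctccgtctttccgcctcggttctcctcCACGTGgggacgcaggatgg
Pes1, chr14:83074266-83074355, plus strand: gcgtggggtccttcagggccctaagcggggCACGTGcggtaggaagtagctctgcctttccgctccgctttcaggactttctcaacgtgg
Gnl3, chr16:6219773-6219862, minus strand: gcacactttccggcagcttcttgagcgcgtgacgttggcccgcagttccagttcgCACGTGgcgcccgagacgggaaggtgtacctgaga
Fbl, chr1:92597416-92597445, plus strand: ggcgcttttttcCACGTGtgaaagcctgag
Nop2, chr4:159618986-159619015, plus strand: tgaactcttccccaagtgCACGTGgagcgg
The Mybbp1a stretch runs from base -165 to base 10 relative to the start and holds 2 sites, while those of Nle1, Pes1 and Gnl3 run from base -80 to base 10. The Fbl and Nop2 sites lie after the start, within bases 10 to 39 and 21 to 50. By response, the motif was in 7 of 29 members that rose (24.1%) and in 5 of 12 that did not pass the test (41.7%). By role it was in 1 of 4 box C/D genes, 1 of 4 box H/ACA genes and 2 of 5 chaperones and regulators. It was in 5 of 14 small-subunit, 6 of 14 large-subunit and 0 of 6 RNA polymerase I genes. With the motif in 9.88% of tested genes, 6 genes are too few for a 0 to show a contrast. For comparison GGGCGG, the core of an Sp1 site, was in 63.8% of members, 68.3% of tested members and 65.9% of tested genes with a window. CGGAAG, an Ets core, was in 55.3%, 56.1% and 34.2%. By response, CGGAAG was in 62.1% of members that rose and 41.7% of those that did not pass, and GGGCGG in 69% and 66.7%. The differences by response were not tested. None of the 3 motifs lies within another. A match describes the letters in the window and not the binding of a factor.

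The box C/D snoRNP proteins carry out ribose methylation and early cleavage. All 4 rose, 3 of them over 2-fold, with a median log2 fold change of 1.21, and all 4 also rose without culture 1. Fbl encodes fibrillarin, the methyltransferase of these particles. It stood at 53.4, 72.1 and 96.5 CPM in mock cultures 1, 2 and 3 and at 171, 269 and 212 CPM in the matching NRG1 cultures. No NRG1 sample overlapped the mock range, and Fbl rose 2.95-fold (log2 fold change 1.56, SE 0.15, adjusted p = 1.02e-05). Nop56, a core protein that holds the guide RNA together with Nop58, was at 42.8, 56.5 and 57.4 CPM in mock and 101, 142 and 112 CPM in NRG1 samples (log2 fold change 1.17, SE 0.12, adjusted p = 2.44e-05). Rrp9, the protein specific to the U3 particle that directs early cleavage of the precursor, was at 20.8, 24.1 and 32.1 CPM in mock and 48.1, 74.8 and 60.5 CPM in NRG1 samples (log2 fold change 1.24, SE 0.15, adjusted p = 6.88e-05). In both genes the NRG1 samples all lay above the mock samples. Nop58 had 108, 82.6 and 89.5 CPM in mock and 185, 215 and 147 CPM in NRG1 samples and the smallest change of the 4 (log2 fold change 0.95, SE 0.14, adjusted p = 3.17e-04). Its mock level was highest in culture 1, unlike that of the other 3, whose mock level was lowest there.

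The 3 tested box H/ACA proteins had a median log2 fold change of 0.48. Of 4 genes, Gar1 and Dkc1 rose, Nop10 did not pass the test, and Nhp2 was listed with 0 counts in all 6 samples. As every cell with ribosomes uses Nhp2, this 0 was not read as absence of expression. Gar1, a core protein of the particle, had 13.5, 17.9 and 17.6 CPM in mock and 23.1, 37.3 and 23.7 CPM in NRG1 samples, with the highest value in NRG1 culture 2 (log2 fold change 0.74, SE 0.16, adjusted p = 0.00425). Dkc1, which encodes dyskerin, the pseudouridine synthase, had 67.7, 78.3 and 96.4 CPM in mock and 97.1, 115 and 124 CPM in NRG1 samples. The lowest NRG1 sample lay just above the highest mock sample, and the change was the smallest of any member that rose (log2 fold change 0.48, SE 0.12, adjusted p = 0.00884). The call of Dkc1 was lost whichever culture was left out (adjusted p up to 0.0512) and that of Gar1 without culture 2 (adjusted p = 0.0241). Nop10, a small core protein, had 9.75, 7.99 and 11.0 CPM in mock and 10.4, 14.9 and 11.6 CPM in NRG1 samples, so the groups overlapped (log2 fold change 0.34, SE 0.20, adjusted p = 0.253, 95% interval -0.10 to 0.77).

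All 5 nucleolar chaperones and regulators rose, with a median log2 fold change of 0.99, and 3 rose without culture 2. Mybbp1a, a nucleolar protein that binds the transcription factor Myb, stood at 124, 188 and 201 CPM in mock cultures 1, 2 and 3 and at 304, 425 and 402 CPM in the matching NRG1 cultures. The groups did not overlap, and it rose 2.23-fold (log2 fold change 1.16, SE 0.12, adjusted p = 2.47e-05). Nolc1, also known as Nopp140, is a chaperone of snoRNPs. Its levels were 100.5, 132 and 128 CPM in mock and 214, 299.6 and 254 CPM in NRG1 samples, again with every NRG1 sample higher (log2 fold change 1.09, SE 0.12, adjusted p = 2.88e-05). Ncl encodes nucleolin, an abundant RNA-binding protein of the nucleolus, and Npm1 encodes nucleophosmin, a histone chaperone and pre-ribosome export factor. Ncl was at 293, 197 and 215 CPM in mock and 474, 477 and 426 CPM in NRG1 samples (log2 fold change 0.99, SE 0.13, adjusted p = 1.79e-04). Npm1 rose with a log2 fold change of 0.68 (adjusted p = 0.00407), in a gene with many processed pseudogenes, whose reads the counting could have split, and its call was lost without culture 2. Lyar, a zinc finger protein of the nucleolus, was at 18.4, 25.01 and 23.3 CPM in mock and 24.5, 41.7 and 34.9 CPM in NRG1 samples. Its ranges overlapped between groups although each pair rose, and its call (log2 fold change 0.58, SE 0.14, adjusted p = 0.00797) was lost without culture 2 (adjusted p = 0.0234), without culture 3 (0.0525) and with DESeq2 (0.0261).

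**Figure D2:**
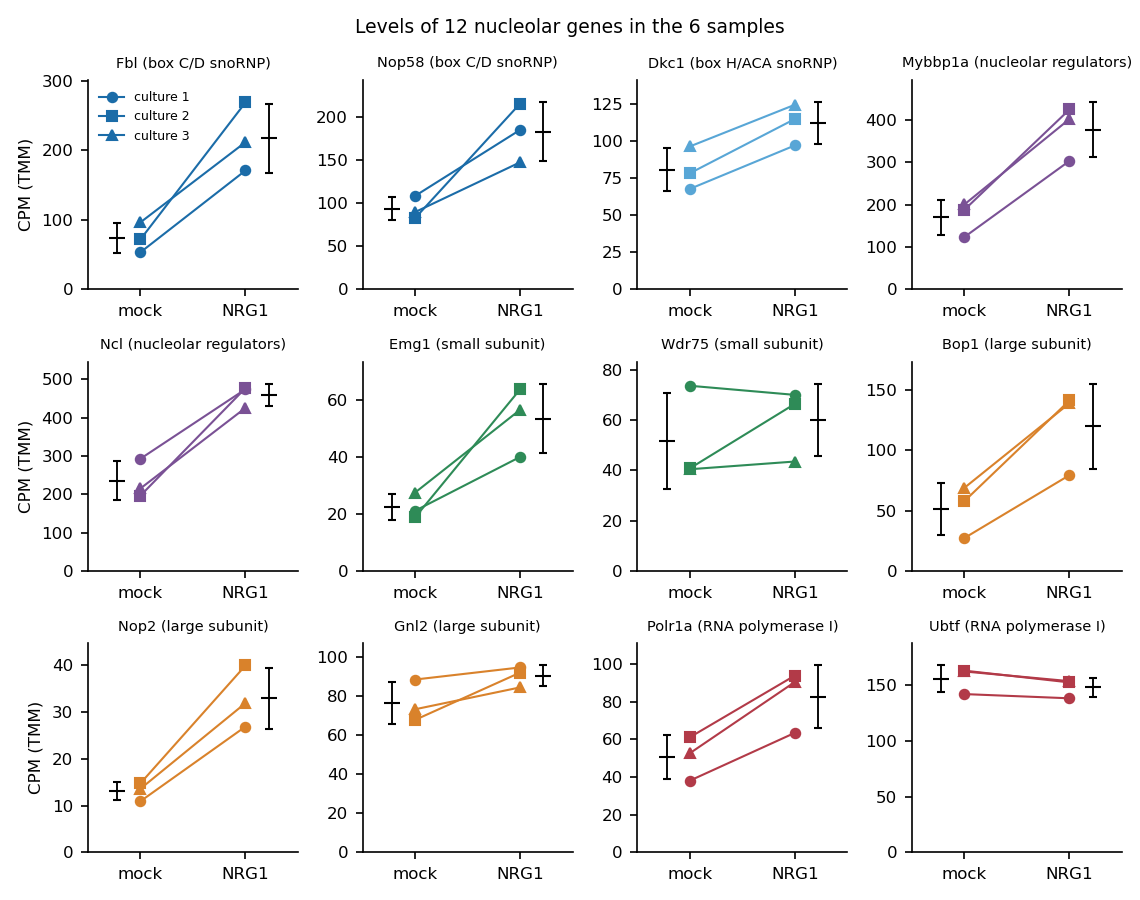
TMM-normalised CPM of 12 members (vertical axes from 0, 1 scale per panel) in mock and NRG1 samples, with a line joining the samples of each preparation and the mean ± SD of 3 samples beside each group. In the panels of Fbl, Nop58, Dkc1, Mybbp1a, Ncl, Emg1, Bop1, Nop2 and Polr1a all NRG1 samples lie above all mock samples, while those of Wdr75, Gnl2 and Ubtf overlap.

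Small-subunit factors act with the U3 particle on the precursor of the small-subunit RNA. Of 12 genes tested, 5 rose and 7 did not pass the test, with a median log2 fold change of 0.50. At an adjusted p of at most 0.05 the count was 9, against 11.5% of all genes tested that rose. With any 1 culture left out, 2 of the 12 rose, and the median without culture 1 was also 0.50. Emg1, a methyltransferase of the small-subunit RNA, had the largest change of the role. It stood at 21.1, 18.8 and 27.5 CPM in mock cultures 1, 2 and 3 and at 40.0, 63.7 and 56.5 CPM in the matching NRG1 cultures. The lowest NRG1 sample exceeded the highest mock sample, and Emg1 rose 2.35-fold (log2 fold change 1.23, SE 0.16, adjusted p = 1.26e-04). Imp4, which binds the U3 RNA to its target, had 56.1, 58.3 and 62.8 CPM in mock and 85.1, 98.8 and 83.3 CPM in NRG1 samples (log2 fold change 0.59, SE 0.12, adjusted p = 0.00360). Wdr43, a WD-repeat protein that links transcription with processing, had 70.7, 63.3 and 61.4 CPM in mock and 93.6, 106 and 90.1 CPM in NRG1 samples (log2 fold change 0.57, SE 0.12, adjusted p = 0.00407). Both rose without overlap, but the adjusted p of Imp4 was 0.0101 without culture 1, and that of Wdr43 was 0.011 without culture 2 and 0.0218 without culture 3. Noc4l and Utp14a were the other two that rose, with log2 fold changes of 0.60 (adjusted p = 0.00816) and 0.53 (adjusted p = 0.00966), and both calls were lost whichever culture was left out and with DESeq2.

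Of the 7 small-subunit factors that did not pass, Utp20 was nearest to the threshold, at 218, 226 and 234 CPM in mock and 275, 331 and 317 CPM in NRG1 samples (log2 fold change 0.44, SE 0.12, adjusted p = 0.0151). Imp3, the partner of Imp4, had a log2 fold change of 0.48 (adjusted p = 0.0199), Rcl1 of 0.57 (adjusted p = 0.0247), the GTPase Bms1 of 0.36 (adjusted p = 0.0357), Nop14 of 0.21 (adjusted p = 0.223) and Nob1, the nuclease that trims the end of the small-subunit RNA, of 0.21 (adjusted p = 0.232). Wdr75, which acts with Wdr43, was the 1 member whose preparations differed in direction. It was at 73.8, 40.8 and 40.5 CPM in mock and 70.1, 66.5 and 43.6 CPM in NRG1 samples, so that log2 ratios were -0.07, 0.70 and 0.11 and mock culture 1 was above every NRG1 sample (log2 fold change 0.24, SE 0.15, adjusted p = 0.273, 95% interval -0.08 to 0.55). Heatr1 had 1 count over the 6 samples and was not tested, and the expression of Tsr1 and Rrp12 was not analysed here.

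Large-subunit factors, the most numerous role, rose in 12 of 15 tested genes with a median log2 fold change of 0.77. Without culture 1 the count was also 12, with Gnl3 in place of Rrs1 and a median of 0.86. Without culture 2 it was 10 with a median of 0.62, and without culture 3 it was 10 with a median of 0.85. Bop1, a scaffold of the PeBoW complex that is needed for maturation of the large-subunit RNAs, stood at 27.3, 57.9 and 68.9 CPM in mock cultures 1, 2 and 3 and at 79.3, 141 and 139 CPM in the matching NRG1 cultures. All NRG1 samples were above all mock samples, with mock culture 1 well below the other two (log2 fold change 1.26, SE 0.13, adjusted p = 2.06e-05). Nop2, a cytosine methyltransferase of the large-subunit RNA, was at 11.0, 14.8 and 13.6 CPM in mock and 26.9, 40.0 and 31.95 CPM in NRG1 samples and had the largest change after Fbl (log2 fold change 1.32, SE 0.15, adjusted p = 3.26e-05). Ppan, an assembly factor of the large subunit, was at 24.2, 33.0 and 41.6 CPM in mock and 50.5, 72.4 and 73.5 CPM in NRG1 samples (log2 fold change 1.00, SE 0.13, adjusted p = 1.11e-04). These 3 genes rose in every set of 2 cultures as well.

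The other large-subunit members that rose had log2 fold changes of 0.63 to 1.00. Nop16 was at 1.00 (adjusted p = 1.35e-04), Nle1 at 0.97 (adjusted p = 4.72e-04), the rRNA methyltransferase Ftsj3 at 0.94 (adjusted p = 2.34e-04) and Noc2l, a partner of Noc3l in nuclear pre-ribosomes, at 0.88 (adjusted p = 1.25e-04). Mrto4, which holds the place of a stalk protein in the pre-ribosome, was at 0.77 (adjusted p = 0.00153). Smaller rises were those of Wdr74 at 0.66 (adjusted p = 0.00345), Wdr12 at 0.66 (adjusted p = 0.00395), the assembly factor Rrs1 at 0.66 (adjusted p = 0.00610) and Pes1 at 0.63 (adjusted p = 0.00222). Of these, the call of Rrs1 was lost whichever culture was left out and with DESeq2, that of Wdr12 without culture 2 and that of Wdr74 without culture 3. The 3 that did not pass were the nucleolar GTPases Gnl3, known as nucleostemin, at 0.50 (adjusted p = 0.0156) and Gnl2, and also Noc3l at 0.45 (adjusted p = 0.0361). Gnl2, with the largest p of the role, was at 88.6, 67.9 and 73.4 CPM in mock and 94.8, 92.2 and 84.6 CPM in NRG1 samples, and its groups overlapped (log2 fold change 0.25, SE 0.12, adjusted p = 0.157, 95% interval -0.01 to 0.50). Ebna1bp2 had 2 counts over the 6 samples and was not tested, and the expression of Rrp1b was not analysed here.

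Of the 6 RNA polymerase I members, the 4 subunits rose, while the factors Rrn3 and Ubtf did not pass. Polr1a, the largest subunit, was at 38.1, 61.1 and 52.6 CPM in mock and 63.5, 93.8 and 90.4 CPM in NRG1 samples (log2 fold change 0.71, SE 0.12, adjusted p = 7.78e-04). Polr1b, the other large catalytic subunit, was at 17.9, 22.8 and 21.0 CPM in mock and 31.3, 34.1 and 28.9 CPM in NRG1 samples (log2 fold change 0.61, SE 0.14, adjusted p = 0.00705). Polr1c, which RNA polymerase III shares, was at 33.4, 28.4 and 39.7 CPM in mock and 52.0, 51.8 and 51.4 CPM in NRG1 samples (log2 fold change 0.61, SE 0.14, adjusted p = 0.00527). None of the 3 overlapped between groups, and Polr1e, a subunit found in this polymerase only, rose by 0.64 (adjusted p = 0.00858) on the log2 scale. Of these 4 calls, that of Polr1a alone remained without culture 1 and without culture 2, and 2 remained without culture 3. The median of the group was 0.61, and 0.56 without culture 1.

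Rrn3, the initiation factor that joins the polymerase to its promoter, had a log2 fold change of 0.12 (95% interval -0.16 to 0.39, adjusted p = 0.555). Ubtf, the factor that keeps ribosomal DNA open, was the 1 member with a lower mean after NRG1. It stood at 142, 163 and 162 CPM in mock cultures 1, 2 and 3 and at 138, 153 and 154 CPM in the matching NRG1 cultures. Each NRG1 sample was slightly below its own mock sample, while the ranges of the groups overlapped (log2 fold change -0.07, SE 0.11, adjusted p = 0.688, 95% interval -0.32 to 0.17). The interval of Ubtf has an upper bound below every log2 fold change of the 4 subunits. Of the subunit genes outside the members, given below, Polr1f at 0.12 and Polr1h at -0.02 lay within it. Polr1d at 0.20 and Polr1g at 0.77 lay above it.

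The size of the change differed between partners in some complexes. For 16 pairs of members, picked after their values were seen, the log2 ratio of 1 gene was subtracted from that of the other within each preparation. With 3 preparations an exact sign-flip test cannot go below p = 0.25 (two-sided), so the values stand as a description. Fbl exceeded Nop58 by 0.90, 0.52 and 0.42 in preparations 1, 2 and 3. In the PeBoW complex Bop1 exceeded Pes1 by 0.84, 0.52 and 0.58 and Wdr12 by 0.97, 0.35 and 0.54, whereas Wdr12 differed from Pes1 by -0.12, 0.16 and 0.05. Emg1 exceeded its partner Nop14 by 0.87, 1.32 and 0.86, with the largest mean difference of the 16 pairs (1.02). Noc2l exceeded Noc3l by 0.57, 0.53 and 0.22. Polr1a exceeded Ubtf by 0.77, 0.71 and 0.86 and Rrn3 by 0.71, 0.53 and 0.55, but differed from Polr1b by only -0.07, 0.04 and 0.32. Imp4 and Imp3 were also close, at -0.01, 0.11 and 0.21.

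**Figure D3:**
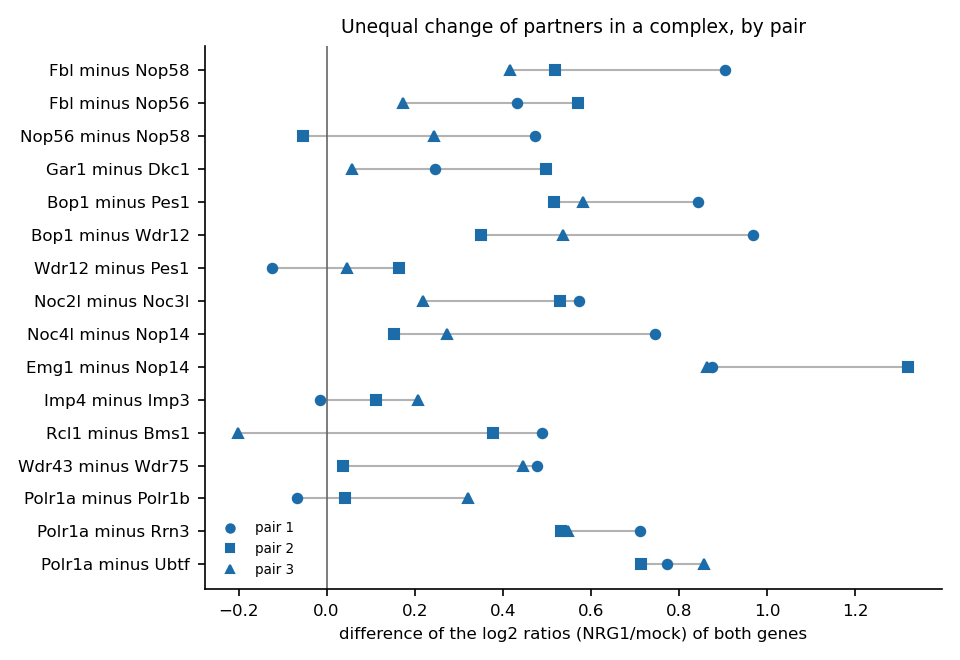
Difference between the log2 ratios (NRG1 against mock) of 2 members of the same complex or step (horizontal axis), with a marker for each of the 3 preparations and a grey line over their range. The differences of Emg1 and Nop14 lie between 0.86 and 1.32, while those of Wdr12 and Pes1 lie on both sides of 0.

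Set side by side, the medians of the log2 ratios in preparations 1, 2 and 3 were 1.22, 1.502 and 0.94 for box C/D proteins, 0.52, 0.89 and 0.37 for box H/ACA proteins and 0.70, 1.17 and 0.98 for chaperones and regulators. They were 0.69, 0.93 and 0.67 for large-subunit factors, 0.38, 0.67 and 0.41 for small-subunit factors and 0.62, 0.60 and 0.41 for RNA polymerase I genes. Box C/D proteins had a higher median than small-subunit factors in every preparation, and so did large-subunit factors. RNA polymerase I genes and small-subunit factors kept no such order. The polymerase had the higher median in preparation 1, the small subunit in preparation 2, and both were at 0.41 in preparation 3. Among other genes of these roles, described below, the large subunit had the higher median in preparations 1 and 3 but not in preparation 2. Their medians were 0.30, 0.59 and 0.36 for other large-subunit factors and 0.27, 0.69 and 0.29 for other small-subunit factors. Genes of a role are not replicates, and these orders carry no test.

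The size of the response differed between preparations. Preparation 2 gave the largest of the 3 log2 ratios in 36 of 45 members (80.0%), compared with 39.2% of all genes tested and 55.3% of the 615 genes that rose. Preparation 3 gave the smallest ratio in 26 members (57.8%), compared with 31.5% of all genes tested and 49.6% of the 615 genes that rose. Median ratios over the members were 0.64, 0.86 and 0.50. Mock levels also differed, the lowest being in culture 1 for 29 members. For 11 members the range of the 3 mock samples on the log2 scale was wider than the fold change itself, and the pair ratios ranged less than the mock samples in 22 members. The counts on mock levels and ranges were taken over the members only, without the share of all genes. The part that the make-up of culture 1 had in these differences was not tested.

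Other genes of the pathway were taken from lists of the same roles and of the RNA exosome. Of 103 such genes 89 were tested, of which 26 rose and 0 fell, with a median log2 fold change of 0.40. At an unadjusted p under 0.05 they counted 53 higher and 1 lower, and DESeq2 called 19 and 0. Over all genes, 17.0% were higher at that p and DESeq2 called 5.77% up. Among the snoRNP and assembly factors 4 of 8 rose, including Ruvbl2 at 36.6, 52.5 and 68.0 CPM in mock and 91.6, 131 and 119 CPM in NRG1 samples (log2 fold change 1.14, SE 0.13, adjusted p = 5.31e-05) and Ruvbl1 at 0.88 (adjusted p = 3.50e-04), the paired ATPases that build box C/D particles. Snu13, a core protein of box C/D particles, rose by 0.77 (adjusted p = 0.00766). Among other small-subunit factors 8 of 28 rose, led by Wdr46 at 1.25 (adjusted p = 1.96e-05), the RNA acetyltransferase Nat10 at 1.16 (adjusted p = 2.88e-05) and Bysl at 1.07 (adjusted p = 5.39e-05). Among other large-subunit factors 10 of 32 rose, led by Pak1ip1 at 17.2, 18.8 and 22.2 CPM in mock and 47.9, 68.0 and 46.9 CPM in NRG1 samples (log2 fold change 1.45, SE 0.16, adjusted p = 2.70e-05) and Rrp15 at 1.16 (adjusted p = 2.71e-04).

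Of 9 further RNA polymerase I genes, taken from outside the members, 2 rose, namely Tcof1, which encodes the nucleolar protein treacle, at 0.84 (adjusted p = 2.28e-04) and the subunit gene Polr1g at 0.77 (adjusted p = 0.00219). The subunit genes Polr1d at 0.20 (adjusted p = 0.302), Polr1f at 0.12 (adjusted p = 0.519) and Polr1h at -0.02 (adjusted p = 0.951) did not pass. Thus 5 of 8 tested subunit genes with a Polr1 symbol rose, members included. This count leaves out the subunits shared with RNA polymerase II, given below, of which none that was tested passed. In the RNA exosome, which trims the precursor RNAs, 2 of 12 rose. RNA polymerases II and III were listed for comparison. The RNA polymerase II list is not separate from RNA polymerase I, which shares the subunits encoded by Polr2e, Polr2f, Polr2h, Polr2k and Polr2l. Polr2h was listed at 0 CPM in every sample and Polr2l at no more than 0.267 CPM, and neither was tested. Polr2e, Polr2f and Polr2k had log2 fold changes of 0.12 (adjusted p = 0.497), 0.45 (adjusted p = 0.0303) and 0.07 (adjusted p = 0.782). Of 9 tested RNA polymerase II genes 0 rose and 0 fell, with a median log2 fold change of 0.15 (1 higher and 0 lower at an unadjusted p under 0.05, and 0 calls by DESeq2). Over all genes tested 6.31% rose and 5.51% fell, so a list of 9 is too short for its 0 to show a contrast. Of 10 RNA polymerase III genes Polr3b rose by 0.59 (adjusted p = 0.00497) and Polr3gl fell, with a log2 fold change of -1.07 (adjusted p = 0.00131). Cytosolic ribosomal protein genes, the products that these factors assemble, rose in 9 of 69 tested cases and fell in 0 with a median of 0.41, and many of them have pseudogenes that can share reads. Of 8 genes of S phase and mitosis 1 rose, Mcm5, and the median was 0.08.

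**Figure D4:**
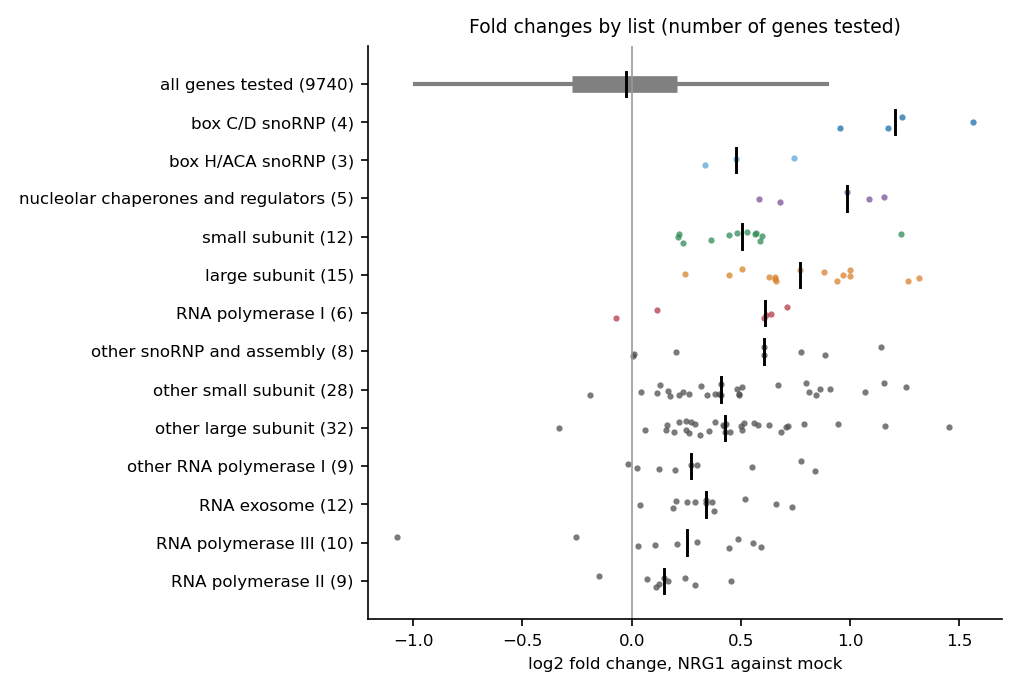
Log2 fold changes of single genes (NRG1 against mock, horizontal axis) in each role of the members, in the other pathway lists and in RNA polymerases II and III, with a black tick at the median of each list. The grey bar of all genes tested spans the quartiles and its line the central 95%. Medians of the lists drawn run from 1.21 for box C/D proteins to 0.15 for RNA polymerase II, against -0.03 for all genes.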

How the data were processed

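Poly(A)-selected RNA of 6 samples, 3 mock and 3 NRG1, was sequenced. Per the labels and the methods of the study, the authors aligned the sequences with TopHat 2.0.10 (rn5 build) and deposited raw read counts per RefSeq gene from htseq, 1 table per sample. The strand setting is not given in the sources used here, so overlapping and antisense genes cannot be separated. Between 47.0 and 49.9% of each table's counts were assigned to genes, and rows that name no gene (not uniquely mapped, 24.5 to 29.9%, no feature, 22.9 to 26.1%, and smaller classes) were left out. Depth was 6821590 to 15475018 gene counts. The floor of 3 counts covers counting error only.

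Counts were fitted in R 4.3.3 with edgeR 4.0.16 (filterByExpr with a minimum count of 10, TMM factors, quasi-likelihood test, replicate number as a block, two-sided) over 9740 genes. Benjamini-Hochberg adjustment covered all of them. A gene was said to rise or fall where its adjusted p did not exceed 0.01. Counts over 2-fold also needed an absolute log2 fold change over 1, as calls in the study did. CPM values use TMM factors, and log2 ratios of pairs use a prior count of 2. The SE is the fold change divided by the root of F. The common biological coefficient of variation was 0.119. The 3 numbers are independent preparations shared by both groups. As a check of the pairing, deviations from the group means correlated between same-numbered samples (r = 0.91, 0.67 and 0.81 over 9740 genes, against -0.80 to 0.51 between different numbers). Over the 45 members r was 0.81, 0.34 and 0.72, against -0.75 to 0.25 between different numbers, so the pairing of number 2 was weak there.

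The members, the lists and the tests were chosen with earlier results of these data known. Values by sample were given for the 3 members with the smallest p and the 1 with the largest p in each of 6 roles, for members whose pairs did not all rise and for the 3 members with the most counts. Promoter sequences came from RefSeq (GRCr8), another assembly than that of the counts, and were matched by symbol only. Alternatives were another tool (DESeq2 1.42.0), normalization, filter, threshold and block, and leaving out each culture. Counts were also simulated for the 9740 genes, with known changes only in the genes counted next. Of these, 18 of 61 genes with an absolute log2 change of 0.5, 37 of 44 with 0.75, 42 of 44 with 1 and 50 of 51 with 1.5 were recovered. The simulation gave 147 calls in all, against 615 genes up and 537 down in the data. Its Benjamini-Hochberg cut was therefore stricter, and these shares are not the recovery in the data. Some marker results are not reported here.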

Additional observations from a re-analysis of the deposited data

How the results depend on the processing

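Against 32 members that rose (8 over 2-fold) and a median log2 fold change of 0.64, other scaling factors, a filter of 10 counts in every sample, DESeq2 with the block and total-count scaling gave 27 to 32. In DESeq2 with the block, 2 RNA polymerase I genes rose. With total counts only, 1 box H/ACA gene rose. With no filter on low counts, 36 members rose, 8 of them small-subunit factors. At an adjusted p of at most 0.05, 38 members, of which 9 were small-subunit factors, and 41 other pathway genes rose. Without the replicate block edgeR gave 0 calls for members, each role and other pathway genes (lowest adjusted p of a member 0.163, 35 members higher at an unadjusted p under 0.05). With the 2-fold threshold inside the test the counts were 0 as well (7 members at an unadjusted p under 0.05). DESeq2 without the block, an alternative chosen after seeing the data, gave 13 members, with 0 box H/ACA, 3 chaperones and regulators, 2 small-subunit, 4 large-subunit and 0 RNA polymerase I genes, and 7 other pathway genes. There 64.6% of all calls were higher, against 59.7% with the block in DESeq2 and 53.4% with the block in edgeR. Leaving out 1 culture gave 20 to 25 members and 7 to 14 over 2-fold, with 0 to 1 box H/ACA, 3 to 5 chaperones and regulators, 2 small-subunit (each time) and 1 to 2 RNA polymerase I genes, and 18 to 27 other pathway genes. The cause of these differences was not tested. In every setting 44 members had a fold change above 0 and no value changed direction. Having 3 preparations limits the precision. Changes of 0.5 on the log2 scale were often missed in simulated counts, which held fewer changed genes than the data and so had a stricter cut.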
